A study of Mus musculus with 8 samples.

Results

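Genes for the synthesis, transport and reception of prostaglandins were examined in IMCD, a mouse line of inner medullary collecting duct cells, kept with or without added NaCl. The rule that picks the genes lists symbols and uses no measured value. Of the 10 genes sought, 9 had a row among the 15288 rows of the raw count table: Pla2g4a, Ptgs1, Ptgs2, Ptges, Ptges2, Ptges3, Slco2a1, Ptger1 and Ptger4. All 9 passed the filter on low counts and were tested. Hpgd, which encodes the enzyme that starts prostaglandin inactivation, was not analysed here.

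Prostaglandins are made from arachidonic acid, which a cytosolic phospholipase A2 cuts from membrane phospholipids. A cyclooxygenase turns it into prostaglandin H2, and terminal synthases turn that into the individual prostanoids, of which prostaglandin E2 is the main product of the renal collecting duct. In this segment prostaglandin E2 acts through receptors of the EP family and is known to affect salt and water transport. Of the cyclooxygenases, Ptgs2 is known as the inducible form in many tissues and has been studied in the renal medulla under hypertonic conditions.

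The study measured 8 libraries of total RNA by bulk sequencing. The 4 control libraries (replicates 1 to 4) came from IMCD cells kept for 12 h in DMEM without serum, and the 4 NaCl libraries (replicates 5 to 8) from cells kept for 12 h in the same medium with 100 mmol NaCl, an amount the labels give without a volume. Before that, all cells were grown to confluence or near it in high-glucose DMEM with serum, penicillin and streptomycin. The labels name a single line, no genetic change, and nothing that says whether the libraries came from separate cultures, so p-values measure only the spread between these libraries.

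Where values are given per library, they are in the order of replicates 1 to 4 and then 5 to 8. Library totals were between 35.29 and 47.57 M counts. The labelled cell type was checked against marker genes. Of 13 collecting duct markers 12 had a row, with a summed level of 745 to 942 CPM (counts relative to the library total, scaled by edgeR's TMM factors) in control and 723 to 845 CPM in NaCl libraries. Keratins 7, 8 and 18, Epcam and Tfcp2l1 made up most of this sum, but the water channel gene Aqp2 had 0 to 15 counts per library, Aqp3 3 to 28 and the cadherin gene Cdh1 2 to 30. The vasopressin receptor gene Avpr2 had 0 to 11 counts in control and 16 to 48 in NaCl libraries (log2 fold change 2.60, adjusted p = 0.00685), and that of Cdh1 was 1.43 (adjusted p = 0.0254). Gata3 (-0.44, adjusted p = 0.00341) and Tfcp2l1 (-0.38, adjusted p = 0.000347) fell. Fibroblast markers (7 of 10 with a row) summed to 3140 to 3650 CPM in control and 2830 to 3260 CPM in NaCl libraries, of which Col1a1 gave 2320 to 2650 and 1950 to 2310 CPM. Col1a1 (log2 fold change -0.21) and Pdgfra (-0.67) fell and Pdgfrb (0.70) rose. Leukocyte markers (4 of 8) summed to 13.1 to 17.9 CPM and 22 to 26.6 CPM, with Ptprc at 3.62 to 4.47 and 13.0 to 14.0 CPM. Of the other leukocyte markers, Fcer1g had a log2 fold change of 1.26 and passed, Cd68 (-0.51) and Csf1r (-0.05) did not, and Adgre1, Tyrobp, Lyz2 and Cd3e were not analysed here. Endothelial markers (3 of 6) summed to 5.68 to 6.79 and 3.03 to 4.09 CPM, and markers of other tubule segments (4 of 8) to 163 to 206 and 157 to 178 CPM. Lrp2 made up nearly all of the last sum, with means of 185.1 CPM in control and 161.9 CPM in NaCl libraries. Umod, Slc12a1 and Slc12a3 had group means of 0.857 to 1.951 CPM. The part of these marker genes in the results on prostaglandin genes was not tested. In a bulk library, fewer cells that express a gene and less of its RNA per cell cannot be told apart.

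With NaCl, Ptgs1 and Slco2a1 were higher and Ptger4 was lower, with no overlap between the groups. Ptgs1, the constitutive cyclooxygenase of most tissues, was 1.76-fold higher, the prostaglandin transporter gene Slco2a1 1.27-fold higher, and the receptor gene Ptger4 fell to 0.705 of its control level. Ptges3 was slightly lower with overlapping groups, and Ptgs2, Ptges, Ptges2, Pla2g4a and Ptger1 did not pass the test. In all, 4 of the 9 genes had an adjusted p under 0.05 in edgeR's quasi-likelihood test, where 34.1% of all 14024 tested genes did. Of the 9 genes 2 were higher, where the share over all genes was 16.9%, and 2 were lower, where it was 17.2%. The groups did not overlap in 3 of the 9 genes and in 33.4% of all tested genes. Read against these shares, the counts are not a result about the list. The median log2 fold change of the 9 genes was 0.054, and that of all tested genes was 0.0029.

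**Figure D1:**
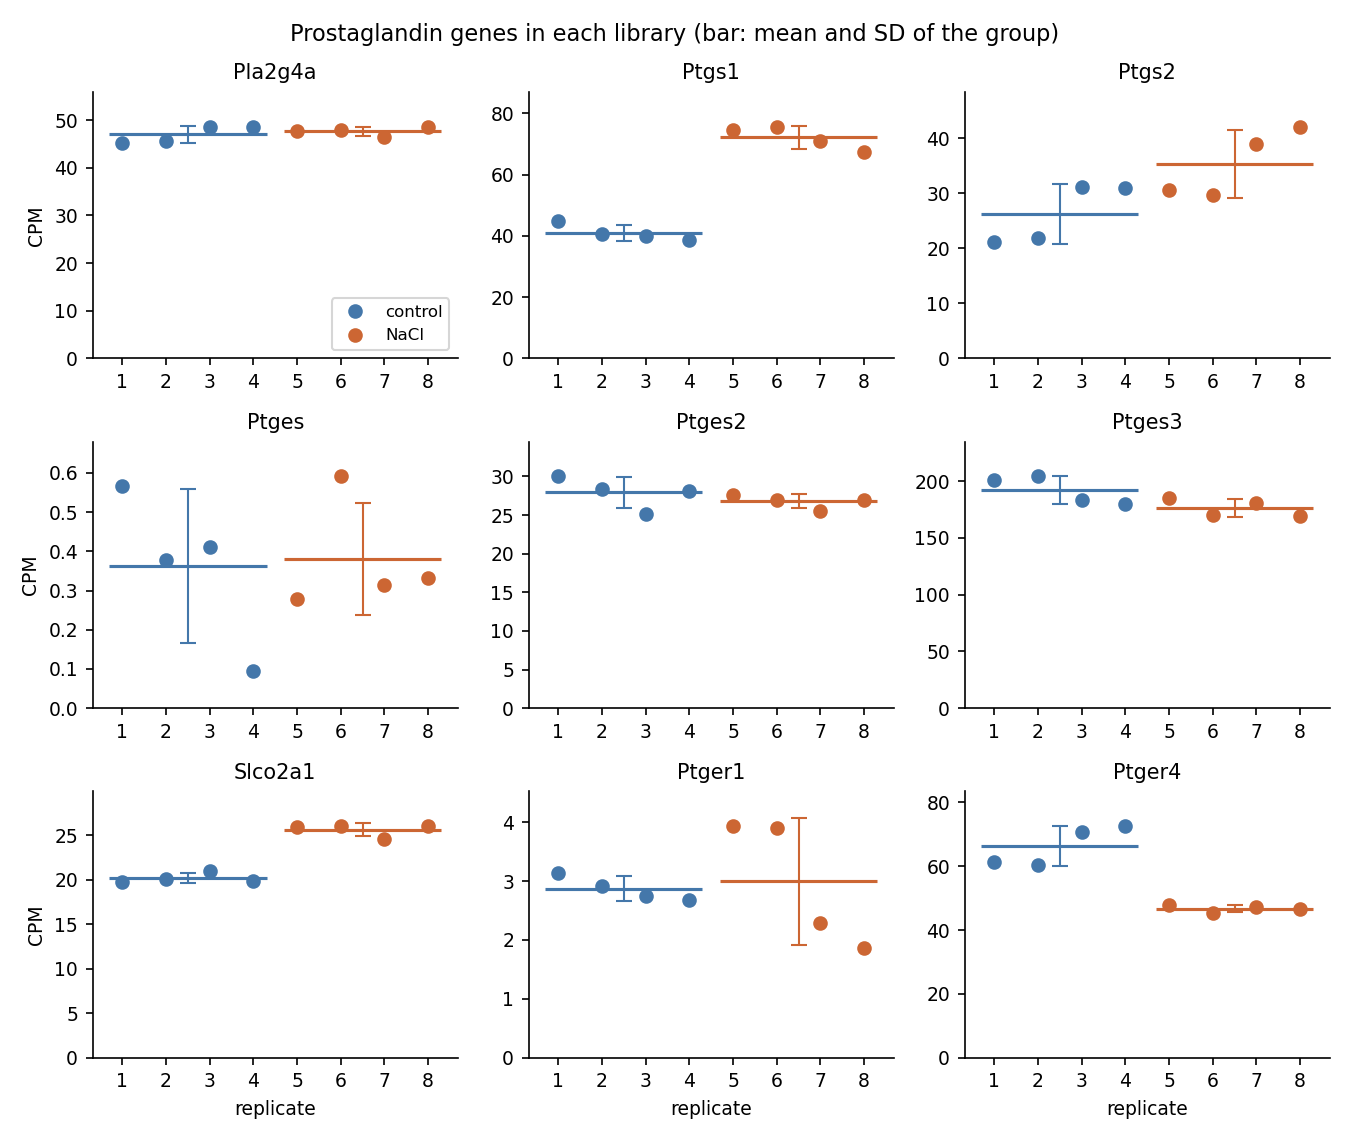
CPM of the 9 prostaglandin genes (vertical axis, starting at 0) in control replicates 1 to 4 and NaCl replicates 5 to 8 (horizontal axis). Points are libraries, horizontal lines are group means and error bars are SD (n = 4). The groups are apart for Ptgs1, Slco2a1 and Ptger4 and overlap for the other 6 genes.

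The sequences upstream of the 3 genes whose groups were apart, and of Ptgs2, are shown to place these genes side by side. Each is the 250 bases before the RefSeq start site on GRCm38.p6, the build of mm10, written 5' to 3' on the strand of the gene, with matches to the searched motifs in capitals. They lie at chr2:36230176-36230425 (+) for Ptgs1, chr1:150099781-150100030 (+) for Ptgs2, chr15:5244188-5244437 (-) for Ptger4 and chr9:103008237-103008486 (+) for Slco2a1.
Ptgs1: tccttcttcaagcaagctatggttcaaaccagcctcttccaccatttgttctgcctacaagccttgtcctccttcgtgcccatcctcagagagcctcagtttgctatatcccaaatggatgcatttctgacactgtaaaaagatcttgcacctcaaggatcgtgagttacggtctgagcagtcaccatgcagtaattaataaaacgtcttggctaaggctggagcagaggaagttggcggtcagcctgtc
Ptgs2: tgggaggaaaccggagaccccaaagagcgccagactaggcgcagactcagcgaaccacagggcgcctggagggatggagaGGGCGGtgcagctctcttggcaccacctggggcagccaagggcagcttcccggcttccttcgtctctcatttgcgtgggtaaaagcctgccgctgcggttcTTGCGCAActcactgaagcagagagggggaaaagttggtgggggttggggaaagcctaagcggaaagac
Ptger4: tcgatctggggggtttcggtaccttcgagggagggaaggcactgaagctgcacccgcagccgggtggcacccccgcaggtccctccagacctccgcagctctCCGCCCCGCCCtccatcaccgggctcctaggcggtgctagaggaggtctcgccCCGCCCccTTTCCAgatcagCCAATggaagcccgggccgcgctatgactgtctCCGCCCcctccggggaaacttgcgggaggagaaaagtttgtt
Slco2a1: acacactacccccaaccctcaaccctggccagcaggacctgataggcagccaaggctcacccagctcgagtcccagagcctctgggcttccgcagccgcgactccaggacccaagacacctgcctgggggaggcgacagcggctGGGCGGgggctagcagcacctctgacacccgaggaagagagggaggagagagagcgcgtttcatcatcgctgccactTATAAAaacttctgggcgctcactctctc

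The search took in these 250 bases and the first 50 bases of the transcript, on both strands, and positions are counted from the start site. The motifs, with the share of 32807 mouse promoters of the same length that hold each, were the TATA box TATAAA (13.6%), the CCAAT box CCAAT (37.4%), the GC box GGGCGG (35.6%), the cAMP response element core TGACG (20.8%), the E-box CACGTG (7.15%), the C/EBP palindrome TTGCGCAA (0.183%) and the core of the tonicity element, TGGAAA (21.4%). A match is a description of the letters and not a bound site. The Ptgs2 window held the C/EBP palindrome at -69 to -62, a GC box at -170 to -165, and an E-box at 17 to 22 that overlaps a reverse match to TGACG at 14 to 18. The stretch printed below holds this overlap, with the joined matches in capitals, and lies in the first exon at chr1:150100035-150100064 (+).
Ptgs2 site: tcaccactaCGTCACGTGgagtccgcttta

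The other windows differed from that of Ptgs2. The Ptger4 window held 4 GC boxes, of which 2 share a base, a CCAAT box at -75 to -71 and a reverse match to TGGAAA at -87 to -82. The Slco2a1 window held a TATA box at -29 to -24 and a GC box at -106 to -101, and its RefSeq start lies 12 bases from the nearest GENCODE transcript start. The Ptgs1 window held none of the searched motifs, which says only that these letters are not in it. The GC content of the 250 bases was 48% for Ptgs1, 61.6% for Ptgs2, 66.8% for Ptger4 and 63.2% for Slco2a1, where the median over all promoters was 52.4%. Of the 9 genes 8 had an entry among these promoters, and those of Ptger4, Ptges2 and Ptges3 held a match to TGGAAA.

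Per length, the 9 genes covered a wide range of levels. In CPM per kb of exon, the control means were 86.6 for Ptges3, 10.6 for Ptgs1, 9.97 for Ptger4, 7.35 for Pla2g4a, 5.74 for Ptgs2, 5.52 for Ptges2, 1.49 for Slco2a1, 0.526 for Ptger1 and 0.0923 for Ptges. In the control libraries the ranges of the neighbours Ptgs1 and Ptger4, and of Ptgs2 and Ptges2, overlapped. In the NaCl libraries the mean levels per kb were 79.5 for Ptges3, 18.6 for Ptgs1, 7.72 for Ptgs2, 7.46 for Pla2g4a, 7.03 for Ptger4, 5.29 for Ptges2, 1.89 for Slco2a1, 0.548 for Ptger1 and 0.0966 for Ptges. Ptgs1 stood clear of the genes below it in the NaCl libraries, and the ranges of Pla2g4a and Ptgs2 overlapped there. Part of this order depends on the length used. Per kb of each gene's longest transcript, a length chosen after the data were seen, the control means were 17.6 CPM for Ptger4, 14.3 for Ptgs1, 13.6 for Pla2g4a and 5.90 for Ptgs2. Ptger4 then lay above Ptgs1 in every control library, and the ranges of Ptgs1 and Pla2g4a overlapped. With NaCl the means by that length were 25.2 for Ptgs1, 13.8 for Pla2g4a, 12.4 for Ptger4 and 7.94 for Ptgs2, with no overlap between neighbours. Slco2a1 was at 2.83 CPM per kb in the controls and 3.6 with NaCl. By either length Ptges3 was the highest of the 9 genes in both groups, and Slco2a1, Ptger1 and Ptges were the lowest, in that order.

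Release of arachidonic acid comes first in the pathway. Pla2g4a (ENSMUSG00000056220, chr1:149829618-149961290, minus strand) encodes the cytosolic phospholipase A2. The controls had 45.1, 45.7, 48.5 and 48.6 CPM of Pla2g4a and the NaCl libraries 47.7, 48, 46.4 and 48.6 CPM. The NaCl libraries lay almost wholly within the control range. The means were 47.0 ± 1.81 and 47.7 ± 0.949 CPM (SD, n = 4 each), with a log2 fold change of 0.021 (95% interval -0.07 to 0.12, adjusted p = 0.758). Pla2g4a and Ptgs2 are neighbours that are transcribed away from each other, with start sites 139 kb apart and 0 annotated protein-coding genes between them.

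Ptgs1 (ENSMUSG00000047250, chr2:36230426-36252272, plus strand) had 2131, 1714, 1661 and 1629 counts in the control and 2676, 3198, 2924 and 2833 counts in the NaCl libraries. The Ptgs1 level was 44.7, 40.6, 40.1 and 38.5 CPM in the controls and 74.7, 75.6, 70.9 and 67.5 CPM with NaCl. Every NaCl library lay well above every control library. The group mean of 41.0 ± 2.61 CPM rose to 72.2 ± 3.73 CPM with NaCl (SD, n = 4 each). On the log2 scale the change was 0.81 (SE 0.053, 95% interval 0.70 to 0.93, adjusted p = 4.48e-09). The annotated gene Gm43621 covers 3.81% of the Ptgs1 exons on the opposite strand.

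Ptgs2 (ENSMUSG00000032487, chr1:150100031-150108227, plus strand) encodes the inducible cyclooxygenase. It had 1011, 924, 1289 and 1308 counts in the control and 1097, 1257, 1607 and 1769 counts in the NaCl libraries. The controls had 21.2, 21.9, 31.1 and 30.9 CPM of Ptgs2 and the NaCl libraries 30.6, 29.7, 38.9 and 42.1 CPM. Control replicates 3 and 4 lay as high as NaCl replicates 5 and 6, so the groups overlapped, and NaCl replicates 7 and 8 lay above all other libraries. The means were 26.3 ± 5.49 and 35.4 ± 6.14 CPM (SD, n = 4 each). The log2 fold change of 0.43 (SE 0.18, 95% interval 0.002 to 0.86) did not pass the threshold of edgeR's quasi-likelihood test (adjusted p = 0.114). With the library number as a covariate centred by group, the log2 fold change was 0.43 and passed (adjusted p = 1.11e-06). With a linear drift along the numbers 1 to 8 in the fit, the value was -0.35 and passed in the other direction (adjusted p = 0.0419). The labels attach no meaning to the library number. Because the controls are numbered 1 to 4 and the NaCl libraries 5 to 8, a drift along the numbers and a difference between the groups cannot be told apart, and no direction is given for Ptgs2.

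The balance of the cyclooxygenase transcripts does not depend on how the libraries are scaled. The ratio of Ptgs2 to Ptgs1 counts was 0.474, 0.539, 0.776 and 0.803 in the controls, and 0.410, 0.393, 0.550 and 0.624 with NaCl. NaCl replicates 5 and 6 lay below all controls, and NaCl replicates 7 and 8 lay among them. The mean ratio was 0.648 ± 0.166 without and 0.494 ± 0.112 with NaCl (SD, n = 4 each), with a difference of -0.38 on the log2 scale (exact two-sided permutation test p = 0.20, where the smallest p this design allows is 0.0286). Ptgs1 transcripts outnumbered those of Ptgs2 in each of the 8 libraries by counts.

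**Figure D2:**
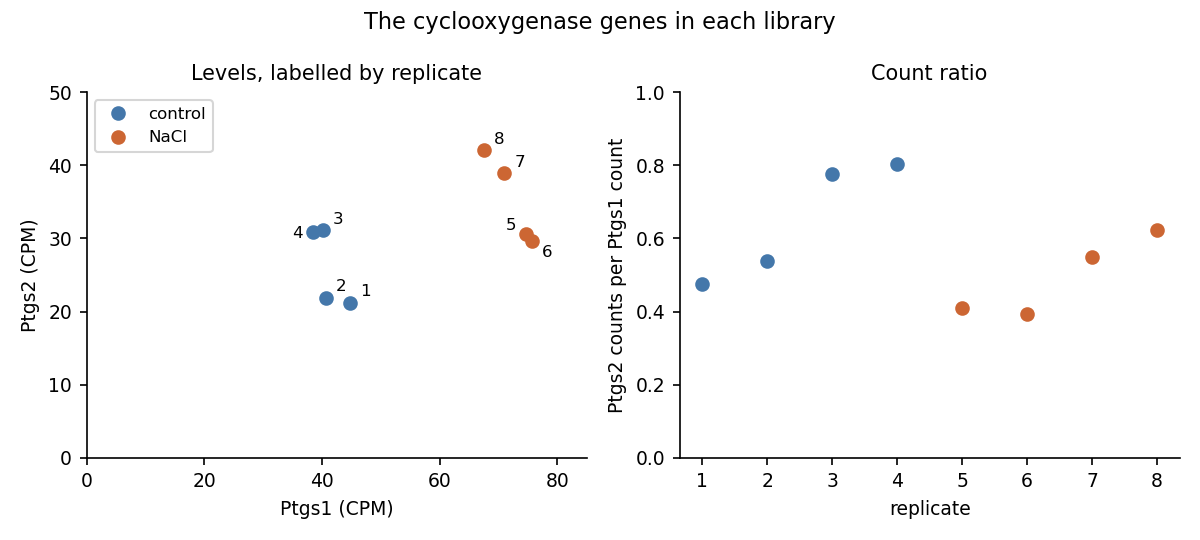
Left, Ptgs2 against Ptgs1 in CPM, each point a library labelled by its replicate number. Right, Ptgs2 counts per Ptgs1 count by replicate, both axes linear and the vertical axis starting at 0. The groups are apart along the Ptgs1 axis (38.5 to 44.7 and 67.5 to 75.6 CPM) and overlap along the Ptgs2 axis and in the ratio.

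Genes of like pattern to Ptgs2 were sought among 10104 other tested genes whose mean log2 CPM was 3 or more, as a description over the same 8 libraries. The highest Pearson correlations of log2 CPM with Ptgs2 were those of Tspan33 (r = 0.985), Mical3 (0.981), Spns2 (0.980), Tmed4 (0.979) and Sdc4 (0.977). Of these, Mical3 (adjusted p = 0.0322) and Sdc4 (0.0299) passed the test between the groups, and Tspan33 (0.0837), Spns2 (0.154) and Tmed4 (0.106) did not. After each gene was centred within its group, Slc25a30 (r = 0.990), Id1 (0.988), Shroom4 (0.985) and Wdr53 (0.984) were among the highest. Among the prostaglandin genes at this level, the correlation over the 8 libraries was 0.548 for Ptgs1, -0.446 for Ptger4, -0.830 for Ptges3, 0.662 for Pla2g4a, -0.712 for Ptges2 and 0.680 for Slco2a1. The centred correlation with Ptgs2 was -0.858 for Ptgs1, 0.778 for Ptger4, -0.692 for Ptges3, 0.675 for Pla2g4a, -0.665 for Ptges2 and 0.163 for Slco2a1, opposite in sign for Ptgs1 and Ptger4. All these points share the 8 libraries and their totals.

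Of the 3 terminal synthases of prostaglandin E2, Ptges3 passed the test and the other two did not. Ptges (ENSMUSG00000050737, chr2:30889471-30929863, minus strand), the inducible microsomal synthase that is coupled to Ptgs2 in many cells, was barely detected. It had 27, 16, 17 and 4 counts in the control and 10, 25, 13 and 14 counts in the NaCl libraries. The groups overlapped widely, at 0.363 ± 0.196 and 0.380 ± 0.143 CPM (SD, n = 4 each), with a log2 fold change of 0.063 in an interval of -0.92 to 1.04 (adjusted p = 0.934). With a linear drift it was 1.47 (adjusted p = 0.31). A difference within that interval was not detectable at these counts.

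Ptges2 (ENSMUSG00000026820, chr2:32395896-32405772, plus strand) encodes another membrane-associated synthase. The Ptges2 level was 30, 28.4, 25.2 and 28.1 CPM in the controls and 27.6, 27.0, 25.5 and 27.0 CPM with NaCl. The NaCl libraries all lay within the control range. The log2 fold change was -0.063 (95% interval -0.19 to 0.07, adjusted p = 0.47).

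Ptges3 (ENSMUSG00000071072, chr10:128058954-128077272, plus strand) encodes p23, known both as a cytosolic prostaglandin E synthase and as a cochaperone of HSP90. The controls had 201, 204, 183 and 180 CPM of Ptges3 and the NaCl libraries 185, 170, 181 and 169 CPM. Control replicates 3 and 4 lay within the NaCl range, so the groups overlapped. The group mean of 192 ± 12.0 CPM fell to 176 ± 7.84 CPM with NaCl (SD, n = 4 each). The log2 fold change was -0.12 (SE 0.045, 95% interval -0.22 to -0.03, adjusted p = 0.0429). This call was lost when control replicate 1 (adjusted p = 0.0945), control replicate 2 (0.135), NaCl replicate 6 (0.127), NaCl replicate 7 (0.0548) or NaCl replicate 8 (0.108) was left out, and with library totals alone as the scaling (0.0884). A linear drift in the fit gave 0.060 (adjusted p = 0.573). Ptges3 shares 24.0% of its longest transcript with the pseudogene Ptges3-ps, so its counts are uncertain.

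The partners of p23 in the HSP90 complex were read from the same fit. Of 8 tested genes 4 were lower, where the share over all tested genes was 17.2%, 0 were higher, where it was 16.9%, and the median log2 fold change was -0.11. The HSP90 genes Hsp90ab1 (3579 ± 75.8 to 2871 ± 11.2 CPM, log2 fold change -0.32, adjusted p = 3.93e-07) and Hsp90aa1 (1205 ± 46.8 to 1027 ± 9.33 CPM, -0.23, adjusted p = 4.92e-05) fell with no overlap between the groups. The immunophilin genes Fkbp4 (-0.12, adjusted p = 0.00651) and Fkbp5 (-0.37, adjusted p = 0.0395) were also lower. Fkbp5 had overlapping groups. Its call was lost without control replicate 2 (adjusted p = 0.0957) or any of NaCl replicates 5 to 8 (0.052 to 0.0839), with library totals alone (0.0505), and with a linear drift, where its log2 fold change was 0.14 (0.521). For Fkbp4 the drift left the log2 fold change at -0.12, with an adjusted p of 0.105, and it took Hsp90aa1 to -0.15 (0.0366).

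Both the uptake and the export gene for prostaglandins were higher with NaCl. Slco2a1 (ENSMUSG00000032548, chr9:102988712-103096002, plus strand) encodes the transporter that takes prostaglandins into the cell ahead of their breakdown. It had 942, 846, 868 and 841 counts in the control and 928, 1099, 1017 and 1093 counts in the NaCl libraries. The Slco2a1 level was 19.7, 20.1, 21.0 and 19.9 CPM in the controls and 25.9, 26.0, 24.6 and 26.0 CPM with NaCl. All NaCl libraries lay above all controls, with little spread within either group. The group mean of 20.2 ± 0.554 CPM rose to 25.6 ± 0.665 CPM with NaCl (SD, n = 4 each). This was a log2 fold change of 0.35 (SE 0.057, 95% interval 0.23 to 0.47, adjusted p = 0.000169).

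Abcc4, which encodes a membrane pump known to export prostaglandin E2 among other substrates, was at 130, 137, 134 and 136 CPM in the controls and at 250, 234, 213 and 226 CPM with NaCl. The groups were far apart. The mean was 134.5 ± 3.05 CPM and rose to 230.8 ± 15.3 CPM (SD, n = 4 each), a 1.72-fold change (log2 fold change 0.78, SE 0.043, adjusted p = 6.76e-10). Of the prostaglandin reductase genes, which act on later breakdown products, Ptgr1 fell from 38.7 ± 2.70 to 32.1 ± 0.895 CPM (log2 fold change -0.27, adjusted p = 0.00144). Ptgr3, listed in the table as Zadh2, was slightly higher (92.5 ± 4.03 to 99.5 ± 2.76 CPM, 0.11, adjusted p = 0.0488) with overlapping groups, and Ptgr2 had a log2 fold change of 0.10 that did not pass (adjusted p = 0.121). The Ptgr3 call was lost without control replicate 1, 2 or 3 or NaCl replicate 6, 7 or 8 (adjusted p = 0.0748 to 0.142) with DESeq2, limma on the authors' values, median-of-ratios or upper-quartile scaling or no filter (0.0529 to 0.0596), and a linear drift in the fit gave -0.0096 (0.945).

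Among the receptors, Ptger4 was the more abundant and fell. Ptger4 (ENSMUSG00000039942, chr15:5206661-5244187, minus strand) encodes EP4, which raises cAMP through Gs. It had 2926, 2550, 2931 and 3064 counts in the control and 1708, 1921, 1942 and 1961 counts in the NaCl libraries. The controls had 61.3, 60.5, 70.8 and 72.5 CPM of Ptger4 and the NaCl libraries 47.7, 45.4, 47.1 and 46.7 CPM. All NaCl libraries lay below all controls, and the controls varied more than the NaCl libraries. The group mean of 66.3 ± 6.25 CPM fell to 46.7 ± 0.941 CPM with NaCl (SD, n = 4 each). On the log2 scale the change was -0.50 (SE 0.058, 95% interval -0.63 to -0.38, adjusted p = 4.60e-06). Genes annotated on the opposite strand, Gm15937 and Ttc33, cover 16.5% of its exons, and the sources used here do not say whether the counting used strand.

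Ptger1 (ENSMUSG00000019464, chr8:83666678-83672753, plus strand) encodes EP1, which raises intracellular calcium. It had 150, 123, 114 and 113 counts in the control and 141, 165, 94 and 78 counts in the NaCl libraries. The Ptger1 level was 3.14, 2.92, 2.75 and 2.67 CPM in the controls and 3.93, 3.90, 2.28 and 1.86 CPM with NaCl. NaCl replicates 5 and 6 lay above all controls and NaCl replicates 7 and 8 below them. The means were 2.87 ± 0.208 and 2.99 ± 1.08 CPM (SD, n = 4 each), that is 0.054 on the log2 scale (95% interval -0.41 to 0.51, adjusted p = 0.875). A linear drift in the fit gave 0.95 (adjusted p = 0.0378). The Ptger1 counts are uncertain, because the sources used here do not say whether the counting used strand. The other prostanoid receptor genes with a row were near the detection limit and did not pass the filter: Ptgfr had 0 to 13 counts per library, Ptgdr2 0 to 11 and Tbxa2r 1 to 8.

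The remaining eicosanoid genes came from a list of 50, of which 32 had a row and 24 were tested. Of these 24 genes 4 were higher and 8 lower, which is 50% against 34.1% of all tested genes, and their median log2 fold change was -0.093. With a linear drift over the libraries 7 of the 24 genes and 3382 of all 14024 were called, and with the library number centred by group 16 of the 24 and 6030 of all. Of 6 synthases of other prostanoids 4 were tested and these 4 passed, 2 higher and 2 lower, where 34.1% of all tested genes passed. Ptgds, which encodes lipocalin-type prostaglandin D synthase, was at 13.5, 13.6, 16.1 and 18.7 CPM in the controls and at 66.6, 57.7, 54.2 and 61.0 CPM with NaCl. No control library came near the NaCl libraries. The mean was 15.4 ± 2.45 CPM and rose to 59.9 ± 5.25 CPM (SD, n = 4 each), a 3.88-fold change (log2 fold change 1.96, SE 0.10, adjusted p = 5.02e-08).

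Hpgds, which encodes the haematopoietic prostaglandin D synthase, moved the other way. The controls had 25.0, 30.7, 28.8 and 33.5 CPM of Hpgds and the NaCl libraries 26.4, 21.0, 21.0 and 21.2 CPM, so NaCl replicate 5 overlapped the controls. The log2 fold change was -0.40 (SE 0.094, adjusted p = 0.00516). The thromboxane synthase gene Tbxas1 had 74, 46, 64 and 60 counts in the control and 20, 22, 15 and 24 counts in the NaCl libraries. Its mean fell from 1.40 ± 0.216 to 0.503 ± 0.0957 CPM (SD, n = 4 each), with no overlap (log2 fold change -1.48, SE 0.27, adjusted p = 4.92e-04). The carbonyl reductase gene Cbr1, whose product can convert prostaglandin E2 to F2 alpha, was higher (23.7 ± 1.59 to 27.1 ± 1.20 CPM, log2 fold change 0.20, adjusted p = 0.0226). With a linear drift the log2 fold change was -0.45 for Hpgds (adjusted p = 0.127), -1.44 for Tbxas1 (0.0784) and 0.17 for Cbr1 (0.363), which no longer passed, and 1.80 for Ptgds (5.38e-04). The Cbr1 call was also lost without control replicate 1 (0.0644) or 4 (0.0634) or NaCl replicate 5 (0.0575) or 8 (0.0603). The levels of the leukocyte markers are given above, and their part in these values was not tested.

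**Figure D3:**
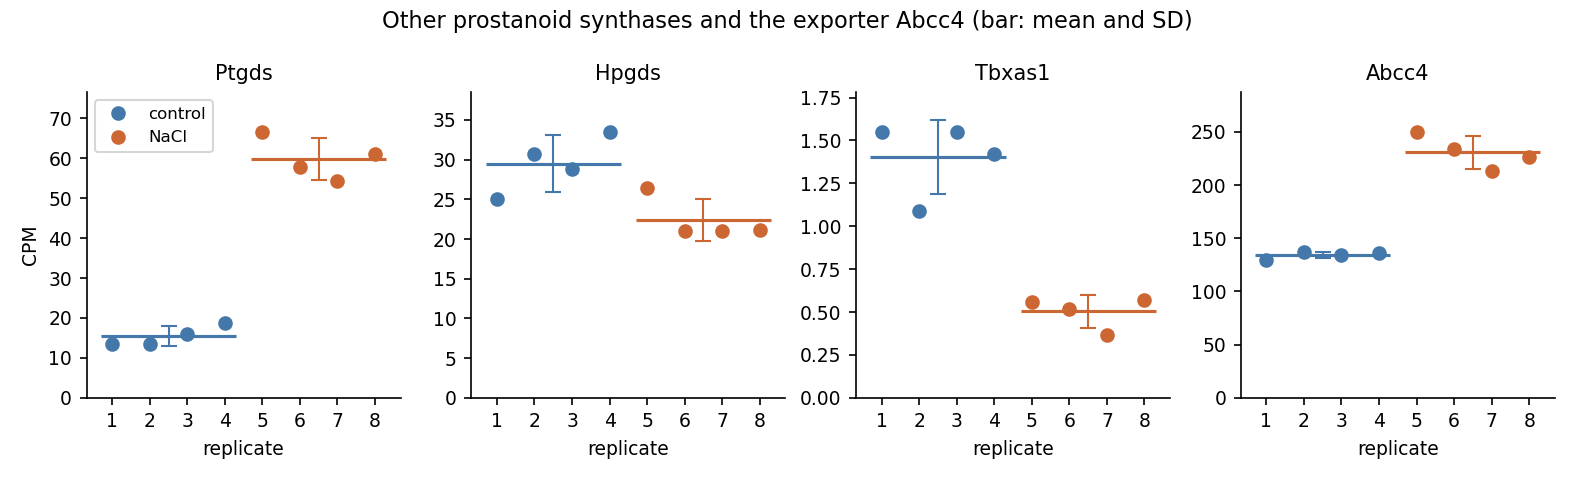
CPM of Ptgds, Hpgds, Tbxas1 and Abcc4 (vertical axes, starting at 0) by replicate, with group means (lines) and SD (error bars, n = 4). Ptgds and Abcc4 are higher and Tbxas1 lower in all NaCl libraries, and Hpgds in NaCl replicate 5 (26.4 CPM) lies within the control range.

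Other phospholipases A2 and enzymes that recycle the fatty acid had 12 tested genes, of which 0 were higher and 4 lower (median log2 fold change -0.093). Against 34.1% called over all tested genes, this count is not a result about the list. Plaat3, a phospholipase A and acyltransferase, fell from 8.57 ± 1.08 to 5.17 ± 0.803 CPM (log2 fold change -0.73, adjusted p = 2.86e-04), and the secreted phospholipase gene Pla2g12a from 21.0 ± 1.02 to 14.7 ± 1.71 CPM (-0.51, adjusted p = 1.27e-04). Both had groups that did not overlap, and with a linear drift Plaat3 was at -0.42 and did not pass (adjusted p = 0.217), while Pla2g12a was at -0.84 and passed (2.16e-05). Pla2g7, the platelet-activating factor acetylhydrolase gene (-0.18, adjusted p = 0.0265), and Acsl4, which encodes a ligase that couples arachidonic acid to coenzyme A (-0.12, adjusted p = 0.0109), changed less. The Pla2g7 call was lost without control replicate 2, 3 or 4 or NaCl replicate 5, 6 or 7 (adjusted p = 0.0511 to 0.0905), and the drift took Pla2g7 to -0.43 (2.81e-04) and Acsl4 to -0.18 (0.0184). In the lipoxygenase pathway 1 of 4 tested genes passed, against 34.1% of all tested genes. It was the leukotriene A4 hydrolase gene Lta4h, which fell from 98.7 ± 1.87 to 89.6 ± 2.29 CPM (-0.14, adjusted p = 0.00582, and -0.16 with 0.0881 under a linear drift).

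**Figure D4:**
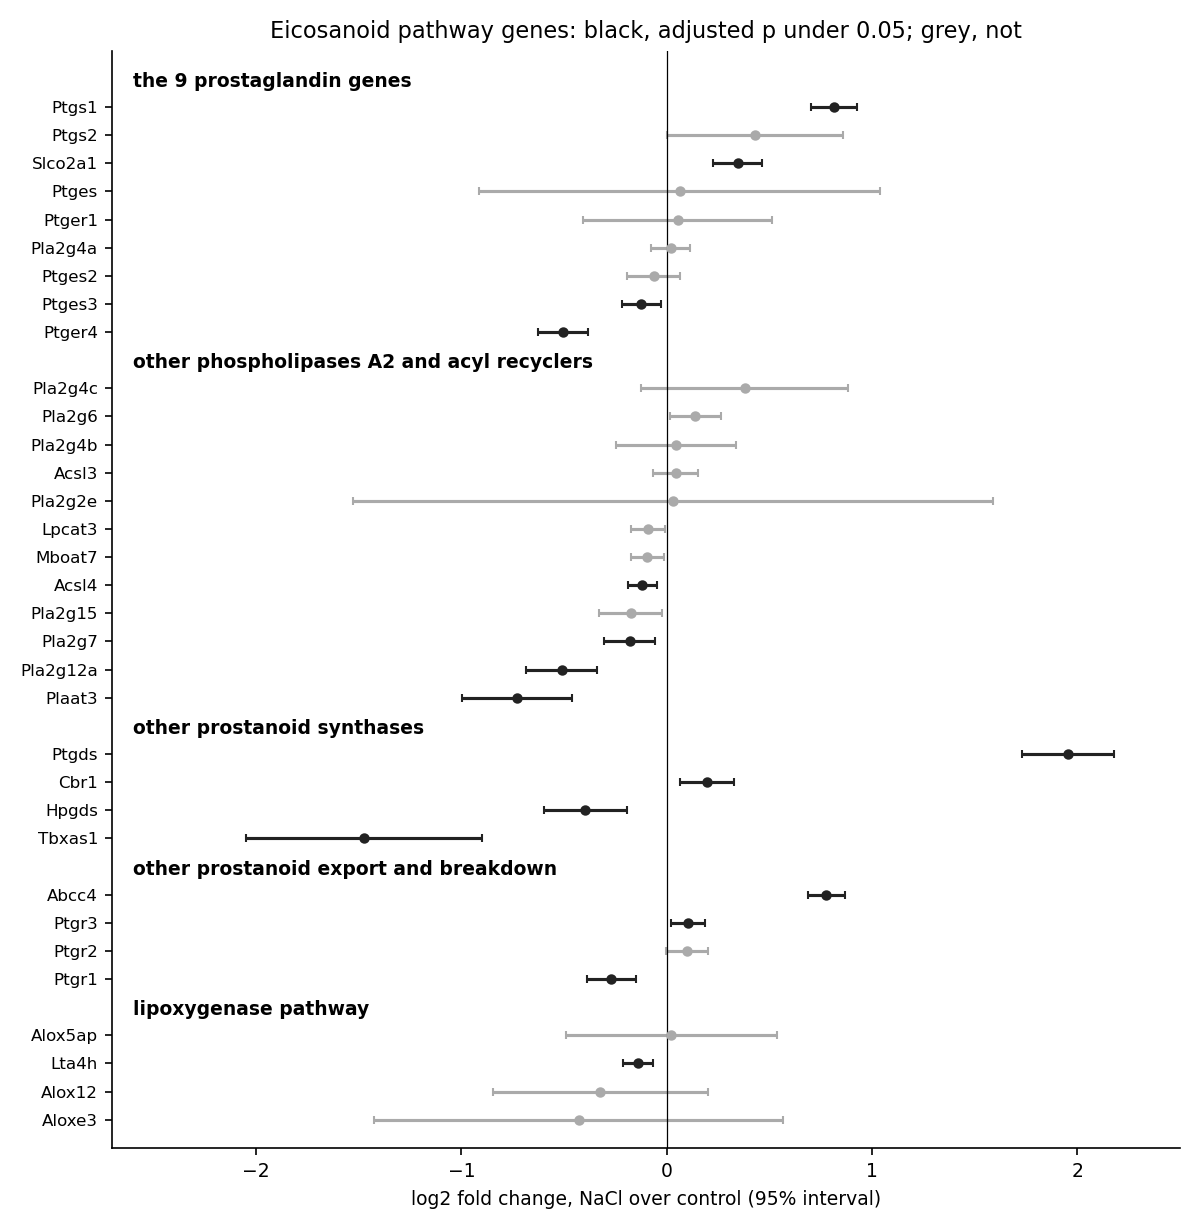
Log2 fold change of NaCl over control (horizontal axis) for the 9 prostaglandin genes and the 24 other tested eicosanoid genes, grouped by role. Points are estimates and bars 95% intervals from edgeR's quasi-likelihood fit, with black for an adjusted p under 0.05. Ptgds (1.96) and Tbxas1 (-1.48) lie farthest from 0.

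Known regulators of Ptgs2 transcription and mRNA stability had 11 tested genes, of which 2 were higher and 4 lower (median log2 fold change -0.052), where the shares over all tested genes were 16.9% and 17.2%. The tonicity-responsive transcription factor gene Nfat5 rose from 266 ± 13.2 to 323.5 ± 12.0 CPM (log2 fold change 0.28, adjusted p = 3.96e-05), and the RNA-binding protein gene Celf2 from 36.7 ± 2.82 to 44.7 ± 5.21 CPM (0.29, adjusted p = 0.0142). Egr1, an immediate early transcription factor gene, fell from 133 ± 3.69 to 91.8 ± 1.06 CPM (-0.54, adjusted p = 4.20e-09), and the C/EBP gene Cebpd from 46.6 ± 2.13 to 32.2 ± 2.60 CPM (-0.53, adjusted p = 3.00e-06). Zfp36l1, whose product promotes decay of mRNAs with AU-rich elements, fell from 232.5 ± 24.9 to 177.7 ± 14.7 CPM (-0.39, adjusted p = 0.00674). The sixth gene past the threshold, Cebpb (-0.17, adjusted p = 0.00654), was named after its values were seen. The Celf2 call was lost without control replicate 2 (adjusted p = 0.0501). With a linear drift its value was -0.12 (0.438), and Nfat5, Egr1, Cebpd and Zfp36l1 were called in the same direction, with Zfp36l1 at -0.77 (1.12e-08).

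The direction of Ptgs1, Slco2a1 and Ptger4 and their calls were the same in each of the 19 alternative fits. Over these fits the log2 fold change was 0.78 to 1.05 for Ptgs1, 0.33 to 0.36 for Slco2a1 and -0.70 to -0.46 for Ptger4. For Ptgs2, with 0.33 to 0.52 when a library was left out, the linear drift alone gave a negative value. The number of prostaglandin genes called was between 3 and 5 of 9.

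**Figure D5:**
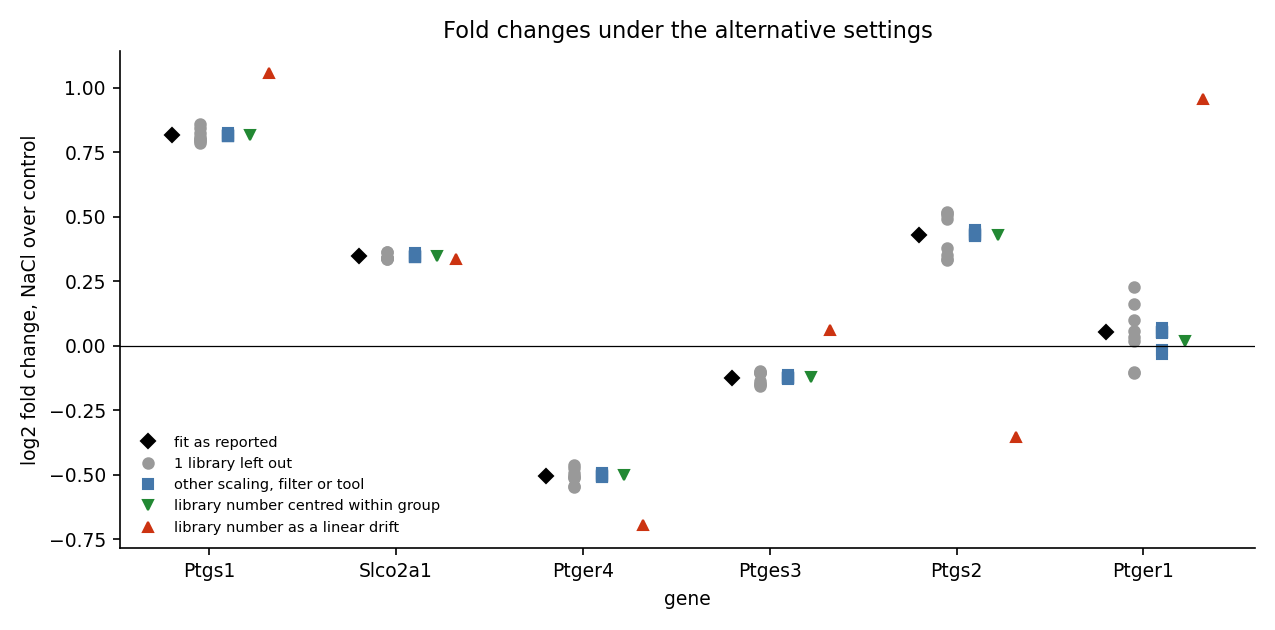
Log2 fold change of NaCl over control (vertical axis, linear) for 6 prostaglandin genes under the fit as reported (diamond), with 1 library left out (circles), with another scaling, filter or tool (squares), and with the library number centred within its group or as a linear drift (triangles). Ptgs1, Slco2a1 and Ptger4 keep their side of 0, and the drift takes Ptgs2 from 0.43 to -0.35.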

How the data were processed

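RNA from 8 libraries was trimmed with Trim Galore 0.6.7 and processed with STAR and DESeq2 1.34.0 on the mouse build mm10, per the submitters' processing notes. The counting program and its strand setting are not given in the sources used here. The authors deposited raw counts for 15288 Ensembl genes, all whole numbers, and a lowest total of 19 over the libraries. A second deposited table held a normalized signal, in which each library's counts were divided by its own factor (0.864 to 1.145). Library totals were 35.29 to 47.57 M counts. PCR copies are not independent molecules, so counting error is a lower limit of the error.

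The counts were tested with edgeR 4.0.16 in R 4.3.3. After filterByExpr (minimum count 10) 14024 genes remained. Libraries were scaled by TMM, the group was the only term of a robust quasi-likelihood model, and p-values of its F test were adjusted by Benjamini-Hochberg over all tested genes, with a threshold of 0.05. CPM used TMM-scaled totals, and log2 CPM a prior count of 2. Intervals are at 95%. The count ratio was tested by an exact two-sided permutation test over the 70 splits (scipy 1.17.1). Counts were simulated with 200 changed genes, a smaller share than the 34.1% called in the data. Over the 13891 genes tested there, the test of NaCl against control recovered 70% of genes changed 1.25-fold. It recovered 79.6% at 1.5-fold, 87.8% at 2-fold and 93.9% at 3-fold, and 6.32% of 174 calls were false. These rates depend on the share of changed genes and need not hold for the data.

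Positions, exon lengths and overlaps came from GENCODE M21 on GRCm38, shared sequence from blastn 2.17.0 (at least 75 bases at 98% identity) and promoters from RefSeq. Alternatives were median-of-ratios, total and upper-quartile scaling, no filter, at least 10 counts in every library, DESeq2 1.42.0, limma-voom (limma 3.58.1), limma on log2 of the authors' values plus 1, a threshold of 0.01, the library number as a covariate (centred within groups, or 1 to 8 as a drift), and leaving out each library. The longest transcript as the length for levels was added after the data were seen. The genes, lists and tests were chosen with earlier results of these data known. The rule for named genes took every listed prostaglandin gene with a row, up to 5 genes past the threshold from each other list by absolute log2 fold change, and the 5 genes most correlated with Ptgs2 by each measure. Some items are not reported here.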

Additional observations from a re-analysis of the deposited data

Results flagged for a closer look

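The 82 groups of 4 values were CPM of single genes and the Ptgs2 to Ptgs1 count ratio. In each, the highest or lowest library was set against the rest by its gap to the nearest, as a share of the range. In 4 groups a library was far from the rest, and chance alone gives about 4.1. Slco2a1 was at 24.6 CPM in NaCl replicate 7 against 25.9 to 26.0 CPM in the rest of the group, still above all controls. Hpgds was at 26.4 CPM in NaCl replicate 5 against 21.0 to 21.2 CPM. Cebpd was at 36.1 CPM in NaCl replicate 8 against 30.8 to 31.1 CPM. The endothelial marker Plvap was at 2.47 CPM in NaCl replicate 7 against 3.22 to 3.29 CPM. Without the library named, the calls of Slco2a1, Hpgds and Cebpd kept their direction and side of the threshold.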

How the results depend on the processing

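A threshold of 0.01 gave 3145 called genes in place of 4789, by its own construction. With a linear drift along the library numbers 1 to 8 in the fit, 7 other eicosanoid genes were called in place of 12 and 3382 genes in all in place of 4789, and the log2 fold change turned to -0.35 for Ptgs2 (adjusted p = 0.0419), 0.060 for Ptges3, 0.065 for Ptges2, -0.068 for Pla2g4a, -0.0096 for Ptgr3, 0.14 for Fkbp5 and -0.12 for Celf2. The cause was not tested. With the number centred by group, 16 eicosanoid genes and 6030 genes in all were called. The Ptger1 value turned to -0.032 with limma-voom and -0.016 with limma on the authors' values. Leaving out a library gave -0.11 to 0.23 for Ptger1 and -0.25 to 0.37 for Ptges, neither of which passed the test in any of these fits. Leaving out a library also gave 4071 to 4634 called genes, and a log2 difference of the Ptgs2 to Ptgs1 ratio of -0.52 to -0.27, where the smallest p-value possible is 0.0571. Ptges was not tested where at least 10 counts were required in every library. No paired analysis was possible because the groups share no replicate numbers in the labels. Ptges, Ptger1 and Tbxas1 had few counts, at most 165 in any library, and the part of depth in their spread was not tested.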
